A study of Mus musculus with 8 samples.

Results

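The 10 genes of the Notch pathway described here in all 8 libraries of an aorta RNA-seq series were the receptors Notch1, Notch2, Notch3 and Notch4, the ligands Dll4, Jag1 and Jag2, and the target genes Hey1, Hey2 and Heyl. They are 10 of the 48607 loci in the gene table, found by gene symbol, and a symbol found on more than 1 row was represented by the row with the largest sum of counts. RNA came from the entire aorta of mice with atherosclerosis after 12 weeks of Western diet, as the study's methods give the duration. One group was ApoE-/- mice, which lack apolipoprotein E, and the other was NPRC-/-ApoE-/- mice, which lack in addition natriuretic peptide receptor C, encoded by Npr3, a receptor that clears natriuretic peptides. All mice of both groups therefore carried the ApoE deletion and ate the Western diet. The methods describe the Npr3 deletion as a frameshift made by CRISPR/Cas9 in every tissue, so it is not restricted to a cell type of the vessel wall. For sequencing the methods name 5 mice of each genotype, and 5 and 3 libraries are analysed here. Purchased ApoE-/- mice were 8 weeks old, and the age of the crossed littermates is not given in the sources used here.

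By title, 5 libraries are ApoE-/- and 3 are NPRC-/-ApoE-/-. The genotype entry of the labels names the same genotype as the title in 4 libraries, which are ApoE-/- 1, 2 and 3 and NPRC-/-ApoE-/- 3, and the other genotype in the remaining 4. Libraries titled ApoE-/- 4 and 5 are entered as NPRC-/-ApoE-/-, and libraries titled NPRC-/-ApoE-/- 1 and 2 are entered as ApoE-/-. Groups are named here by title, every comparison was repeated by genotype entry, and for the 4 libraries whose labels agree (3 against 1) the values are given without a test. Npr3 itself did not tell the genotypes apart. Its FPKM, a fragment number scaled for the length of the transcript and the depth of the library, was 1.69, 0.93, 0.62, 1.01 and 1.67 in libraries titled ApoE-/- 1 to 5 and 1.18, 1.39 and 1.13 in libraries titled NPRC-/-ApoE-/- 1 to 3. Library totals were 67039577 to 84600371 counts for the 5 titled ApoE-/- and 62969165 to 86693276 for the 3 others, and the Notch genes had 299 to 46236 counts per library. Markers of the vessel wall were present in every library: Acta2, the actin of smooth muscle, had 849 to 1982 FPKM, and Pecam1, an adhesion molecule of endothelium, had 18.5 to 24.7 FPKM. Ucp1, the uncoupling protein of brown fat, had 71.8 to 343 FPKM, Ckm, the muscle creatine kinase, 0.11 to 2.31, and Prox1, the lymphatic endothelial transcription factor, 0.25 to 0.94. The locus of Apoe, the gene deleted in both groups, shares reads with Tomm40 and had 2.33 to 3.38 FPKM.

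Notch receptors are single-pass membrane proteins that bind ligands of the Delta-like and Jagged families on a neighbouring cell. Binding exposes the receptor to cleavage by ADAM proteases and then gamma-secretase, and the freed intracellular domain joins the DNA-binding protein RBPJ and a Mastermind coactivator to switch on targets such as the Hes and Hey repressors. In arteries, Notch1, Notch4, Dll4 and Jag1 are known from endothelium, where the pathway takes part in arterial identity, Notch3 is known as the receptor of smooth muscle, and Hey genes are among the usual transcriptional targets.

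RBPJ binds the core TGGGAA, often as GTGGGAA, so the promoters of the Notch genes were searched for both on either strand, GTGGGAA being TGGGAA with 1 more base. RefSeq sequence of GRCm38.p6 for the 250 bases before the transcription start was found for 8 of the 10 genes. It was not found for Hey1 and Heyl, so their promoters were not searched. Hey2 held both, as 1 site on the strand opposite to the gene, 207 bases before its start. Among 32817 promoters of that length TGGGAA stood in 21.6% and GTGGGAA in 5.42%, so a match is common and is given as a description of the sequence. The promoters of Hey2 (chr10:30842784-30843033, minus strand), with that site in capitals as it reads on the strand of the gene, and of Dll4 (chr2:119325534-119325783, plus strand), the ligand with the largest fold change below 0, read 5′ to 3′ as follows.
Hey2: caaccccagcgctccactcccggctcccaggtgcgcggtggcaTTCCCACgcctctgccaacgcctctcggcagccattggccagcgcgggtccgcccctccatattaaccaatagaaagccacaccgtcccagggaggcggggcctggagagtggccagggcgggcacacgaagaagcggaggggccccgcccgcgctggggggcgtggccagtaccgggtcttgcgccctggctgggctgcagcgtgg
Dll4: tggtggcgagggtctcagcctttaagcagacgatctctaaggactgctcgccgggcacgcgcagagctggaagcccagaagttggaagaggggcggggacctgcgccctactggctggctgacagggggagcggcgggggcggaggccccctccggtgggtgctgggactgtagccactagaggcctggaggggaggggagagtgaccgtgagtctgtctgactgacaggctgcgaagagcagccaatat
Neither motif was found in these letters for Dll4. Windows end at the start that RefSeq gives, which can differ from the start in GENCODE, so 18 bases of the Hey2 window and none of the Dll4 window lie inside the GENCODE gene, while the windows of Notch1 and Jag2 lie wholly inside theirs.

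All 10 genes passed the filter on low values (at least 1 FPKM in at least 3 libraries), as did 20506 loci in all. FPKM, which is per transcript length, allows levels to be compared between genes. By median FPKM over the 8 libraries the order was Notch2 14.9, Notch3 10.4, Jag1 6.84, Notch1 6.62, Heyl 4.65, Notch4 4.10, Hey2 3.10, Dll4 3.06, Hey1 1.55 and Jag2 1.02. Notch3 and Jag1 were the only neighbours in this order whose ranges did not overlap. Dll4 was above Hey1 in 8 of 8 libraries although their ranges overlapped, whereas Hey2 and Dll4 changed places from library to library, with Hey2 above in 4 of 8. Jag2 reached 1 FPKM only in the 5 libraries titled ApoE-/-, so it passed the filter through the group where it was high, and its lower direction by title is tied to that selection. The levels of the Notch4 and Hey2 loci include reads of other genes, as given for each.

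**Figure D1:**
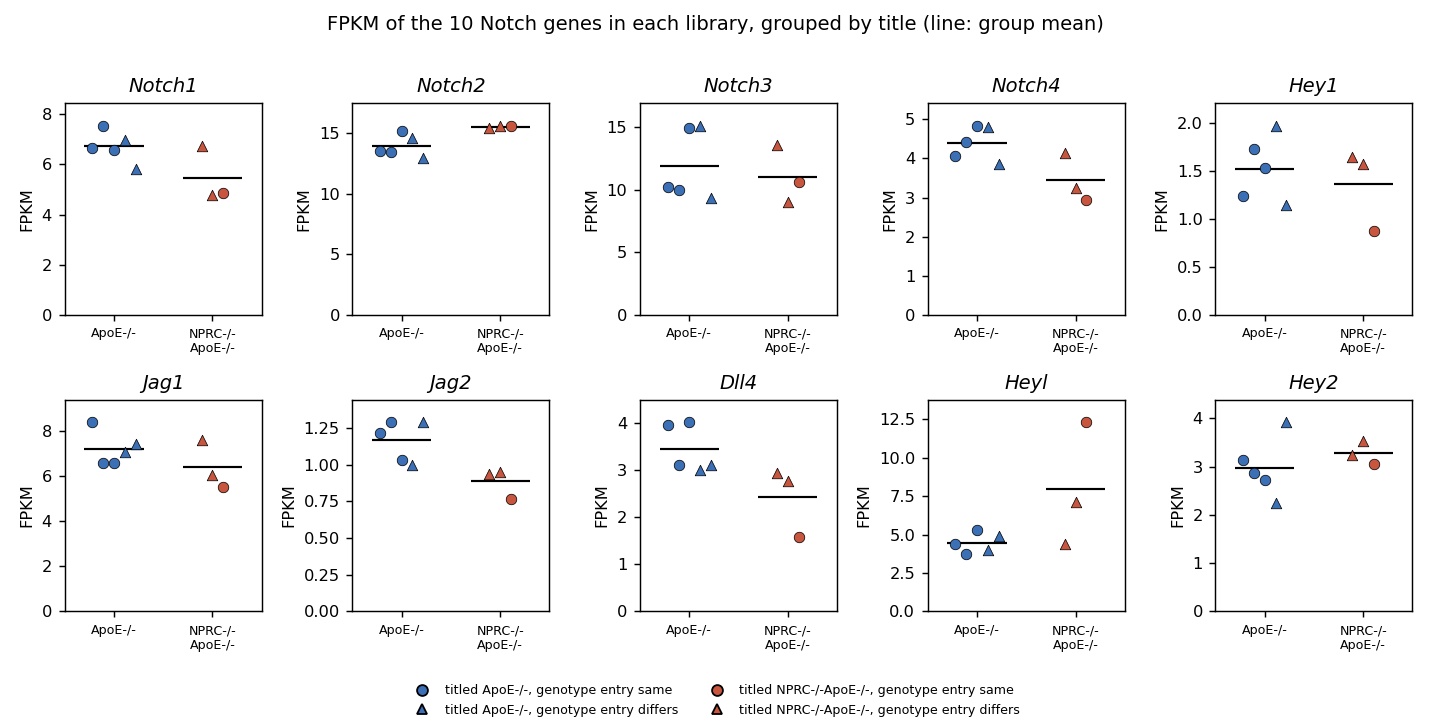
FPKM (vertical axes, each from 0) of the 10 Notch genes in every library, grouped by title on the horizontal axes. Points are libraries, lines are group means, and triangles are the 4 libraries whose genotype entry differs from the title. Dll4 and Jag2 are lower in all 3 libraries titled NPRC-/-ApoE-/- than in every library titled ApoE-/-, Notch2 is higher, and Heyl spreads from 4.40 to 12.3 FPKM among the 3.

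No Notch gene passed the test between genotypes. At an adjusted p-value under 0.05 by edgeR's quasi-likelihood test, 0 of 10 genes were called by title, as were 0.0% of the 20506 loci tested, and 0 of 10 by genotype entry, again with 0.0% of loci. DESeq2, which called 3.17% of loci by title, also called 0 of the 10. At an unadjusted p-value under 0.05 edgeR picked 2 of the 10 by title, Jag2 lower and Heyl higher, where the share of all loci was 7.13% lower and 6.51% higher. As Jag2 passed the filter through 1 group, its place in this count is a description. That count was 5 without library ApoE-/- 5, 5 without NPRC-/-ApoE-/- 1, 1 without NPRC-/-ApoE-/- 2 and 0 without NPRC-/-ApoE-/- 3, named by title. The share of all loci was not taken for these fits, so whether the counts lay above that share is not known. The criterion of the study, a fold change above 2 or below 0.5 with such a p-value, took 0 of the 10 (2.39% of loci lower and 1.08% higher). By title 7 of the 10 fold changes were below 0, against 50.9% of loci, with a median log2 fold change of -0.16 beside -0.01 over all loci. By genotype entry the median was -0.06, and 0 of the 10 had an unadjusted p-value under 0.05, as did 1.31% of loci. P-values measure the spread between these libraries, whose labels do not tie each to a mouse.

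Among the receptors, none passed the test between the titled groups. As mean shares of the receptors, the titled NPRC-/-ApoE-/- libraries held more Notch2 and less Notch1 and Notch4 locus. Library NPRC-/-ApoE-/- 1 lay within the titled ApoE-/- range for the shares of Notch2 and Notch1. Notch1 (ENSMUSG00000026923, chromosome 2, 26457903 to 26516663 on the minus strand of GRCm38, as all positions of genes here), a receptor of endothelial and immune cells, had 6.67, 7.55, 6.57, 6.99 and 5.83 FPKM in libraries titled ApoE-/- 1 to 5 and 6.72, 4.80 and 4.86 in NPRC-/-ApoE-/- 1 to 3 by title. Libraries 2 and 3 of the titled NPRC-/-ApoE-/- group were the lowest of all, and library 1 lay within the other group. The log2 fold change was -0.29 (SE 0.16, adjusted p = 0.44 by edgeR) by title and -0.10 (SE 0.18) by genotype entry. The row also carries the microRNA gene Mir6996. A second, shorter assembled locus with the Notch1 symbol lies inside the gene on the opposite strand (chromosome 2, 26486534 to 26493612) and had 1.64 to 2.18 FPKM in the 5 libraries of the titled ApoE-/- group and 1.45 to 1.47 in the others. Its FPKM did not overlap between the titled groups, as was so for 4.37% of loci in the lower direction, but its log2 CPM did overlap. This locus had a log2 fold change of -0.29 (SE 0.14, adjusted p = 0.41 by edgeR) by title and -0.00080 (SE 0.18) by genotype entry. Whether the counting used strand is not given in the sources used here, so reads of the gene and of this opposite locus may not be told apart.

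Notch2 (ENSMUSG00000027878, chromosome 3, 98013527 to 98150361, plus strand), the receptor with the highest level, had 13.54, 13.41, 15.21, 14.58 and 12.97 FPKM in libraries titled ApoE-/- 1 to 5 and 15.44, 15.59 and 15.63 in the libraries titled NPRC-/-ApoE-/-. The 3 values lay above all 5 in FPKM (2.88% of loci did so), but in log2 CPM, which is counts scaled to library size with TMM factors, the groups overlapped. With a log2 fold change of 0.17 (SE 0.14, adjusted p = 0.60 by edgeR) by title and 0.01 (SE 0.17) by genotype entry, the difference did not pass the test. Its row includes the predicted gene Gm42820.

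Notch3 (ENSMUSG00000038146, chromosome 17, 32120820 to 32166852, minus strand), the smooth muscle receptor, ranged most widely of the receptors in FPKM. Libraries titled ApoE-/- 1 to 5 had 10.22, 9.99, 14.94, 15.14 and 9.36 FPKM, and libraries titled NPRC-/-ApoE-/- 1 to 3 had 13.57, 9.01 and 10.60. Libraries ApoE-/- 3 and 4 and NPRC-/-ApoE-/- 1 were high and the other 5 low, so both titled groups covered the range. Its log2 fold change was -0.11 (SE 0.25, adjusted p = 0.87 by edgeR) by title and 0.05 (SE 0.26) by genotype entry.

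Notch4 (ENSMUSG00000015468, chromosome 17, 34564268 to 34588503, plus strand), an endothelial receptor, shares its assembled locus with Gpsm3 and Pbx2, which reaches to 34597400, so its value is uncertain. The locus had 4.06, 4.41, 4.84, 4.81 and 3.85 FPKM in libraries titled ApoE-/- 1 to 5 and 4.13, 3.25 and 2.94 in NPRC-/-ApoE-/- 1 to 3 by title. As for Notch1, libraries 2 and 3 of the titled NPRC-/-ApoE-/- group were the lowest and library 1 lay within the other group. The log2 fold change was -0.34 (SE 0.16, adjusted p = 0.39 by edgeR) by title and -0.07 (SE 0.20) by genotype entry.

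As shares of the summed FPKM of the 4 receptors, Notch2 took 35.1 to 47.7%, Notch3 27.6 to 36.5%, Notch1 14.3 to 21.4% and Notch4 8.64 to 12.5% over the 8 libraries. The mean share of Notch2 was 37.9% in the libraries titled ApoE-/- and 44.1% in those titled NPRC-/-ApoE-/-, and that of Notch4 was 11.9% and 9.65%. Grouped by genotype entry these means were 40.1% and 40.5% for Notch2 and 11.2% and 10.8% for Notch4. Library NPRC-/-ApoE-/- 1 by title had 38.7% Notch2 and 16.9% Notch1, inside the ranges of the titled ApoE-/- libraries. The Notch4 share is that of the locus shared with Gpsm3 and Pbx2. These shares are descriptions and were not tested.

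Of the ligands, Dll4 and Jag2 had lower levels in every library titled NPRC-/-ApoE-/- than in any library titled ApoE-/-, and neither passed the test. For Jag2 that direction is tied to its passing the filter on low values only through the titled ApoE-/- group. Dll4 (ENSMUSG00000027314, chromosome 2, 119325784 to 119335962, plus strand), the Delta-like ligand of arterial endothelium, had 3.96, 3.11, 4.02, 3.01 and 3.11 FPKM in libraries titled ApoE-/- 1 to 5. In the libraries titled NPRC-/-ApoE-/- 1 to 3 it had 2.94, 2.77 and 1.58. Library 3, whose labels agree, was the lowest of the 8, and libraries 1 and 2 lay just under the lowest library titled ApoE-/-. The log2 fold change was -0.50 (SE 0.22, unadjusted p = 0.052, adjusted p = 0.37 by edgeR) by title and -0.37 (SE 0.25) by genotype entry, where the groups overlapped. Without library NPRC-/-ApoE-/- 3 it was -0.27 (SE 0.20) by title and -0.13 (SE 0.22) by genotype entry. By genotype entry 0 of the 10 genes lacked overlap in FPKM, as did 0.97% of loci.

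Jag2 (ENSMUSG00000002799, chromosome 12, 112907819 to 112929776, minus strand), a Jagged ligand, had 1.22, 1.29, 1.03, 1.00 and 1.29 FPKM in libraries titled ApoE-/- 1 to 5 and 0.94, 0.95 and 0.77 in NPRC-/-ApoE-/- 1 to 3 by title. The groups did not overlap in FPKM or in log2 CPM. A lack of overlap in the lower direction was found for 4.37% of loci in FPKM and 3.69% in log2 CPM, and for Dll4 and Jag2 of the 10 Notch genes. The log2 fold change of Jag2 was -0.37 (SE 0.14, unadjusted p = 0.024, adjusted p = 0.32 by edgeR) by title, and with no filter on low values it was -0.36 (unadjusted p = 0.041, adjusted p = 0.46 by edgeR). By genotype entry it was -0.07 (SE 0.19), with overlapping groups.

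Jag1 (ENSMUSG00000027276, chromosome 2, 137081456 to 137116644, minus strand), the most abundant ligand, had 8.40, 6.60, 6.60, 7.07 and 7.45 FPKM in libraries titled ApoE-/- 1 to 5 and 7.62, 6.08 and 5.51 in NPRC-/-ApoE-/- 1 to 3 by title. Library 1 of the titled NPRC-/-ApoE-/- group was the second highest of the 8 and library 3 the lowest. Its log2 fold change was -0.15 (SE 0.13, adjusted p = 0.62 by edgeR) by title and -0.05 (SE 0.15) by genotype entry. Jag1 made up 56.7 to 70.1% of the summed FPKM of the 3 ligands, Dll4 20.1 to 34.5% and Jag2 8.17 to 11.7%. Library NPRC-/-ApoE-/- 3 had both the highest share of Jag1 and the lowest share of Dll4.

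The Hey genes encode basic helix-loop-helix repressors, and their fold changes by title had both signs, none past the test. Heyl (ENSMUSG00000032744, chromosome 4, 123233556 to 123249875, plus strand), the member of the family known from smooth muscle, had 4.38, 3.77, 5.28, 4.03 and 4.89 FPKM in libraries titled ApoE-/- 1 to 5 and 4.40, 7.15 and 12.31 in NPRC-/-ApoE-/- 1 to 3 by title. Libraries 2 and 3 lay above every library titled ApoE-/-, and library 1 lay among them. The log2 fold change was 0.87 (SE 0.30, 1.83-fold, unadjusted p = 0.019, adjusted p = 0.31 by edgeR) by title and 0.55 (SE 0.39) by genotype entry. Without library NPRC-/-ApoE-/- 3 the value by title was 0.37. A second assembled locus with the Heyl symbol lies downstream of the gene (chromosome 4, 123250407 to 123254006, strand not assigned). Its FPKM was 0.26 to 0.54 in the libraries titled ApoE-/- and 0.38, 0.91 and 2.01 in NPRC-/-ApoE-/- 1 to 3 by title, the same order of libraries as for Heyl in that group, and it was under the filter on low values.

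Hey1 (ENSMUSG00000040289, chromosome 3, 8663359 to 8667256, minus strand) had 1.24, 1.73, 1.53, 1.97 and 1.14 FPKM in libraries titled ApoE-/- 1 to 5 and 1.64, 1.57 and 0.87 in NPRC-/-ApoE-/- 1 to 3 by title. Library 3 of the titled NPRC-/-ApoE-/- group was the lowest of the 8, and the other 2 lay inside the range of the libraries titled ApoE-/-. The log2 fold change was -0.16 (SE 0.27, adjusted p = 0.82 by edgeR) by title and -0.18 (SE 0.28) by genotype entry.

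Hey2 (ENSMUSG00000019789, chromosome 10, 30832359 to 30842801, minus strand) lies in an assembled locus that starts at 30603195 and also holds Hint3, Ncoa7 and Gm20300, so its value is uncertain. The locus had 3.13, 2.87, 2.72, 2.25 and 3.92 FPKM in libraries titled ApoE-/- 1 to 5 and 3.24, 3.53 and 3.06 in NPRC-/-ApoE-/- 1 to 3 by title. The 3 values lay inside the range of the other 5. Its log2 fold change was 0.17 (SE 0.15, adjusted p = 0.63 by edgeR) by title and 0.01 (SE 0.17) by genotype entry. Heyl took 45.0 to 55.4% of the summed FPKM of the 3 Hey loci in the libraries titled ApoE-/-, and 47.4, 58.4 and 75.8% in NPRC-/-ApoE-/- 1 to 3 by title, while the share of Hey1 in the last of these was 5.36%, the lowest of all.

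**Figure D2:**
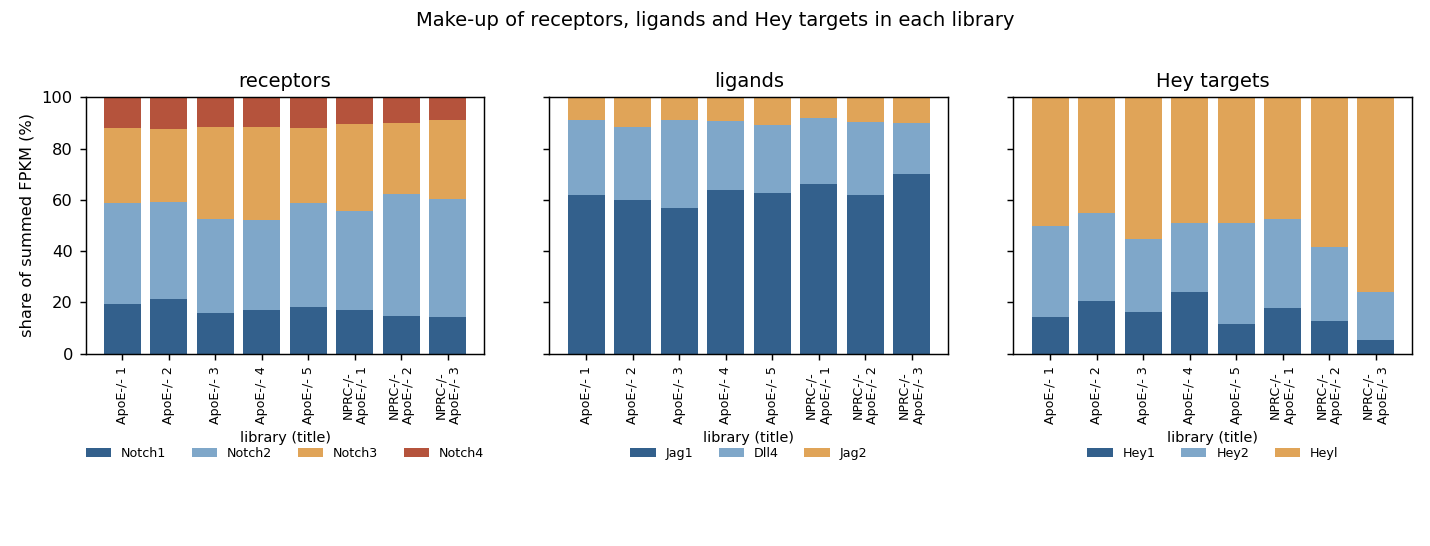
Share (vertical axis, percent of the summed FPKM) of each gene among the 4 receptors, the 3 ligands and the 3 Hey loci, with 1 bar per library named by its title. Notch2, Jag1 and Heyl are the largest receptor, ligand and Hey shares in most libraries, and Heyl reaches 75.8% in library NPRC-/-ApoE-/- 3.

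**Figure D3:**
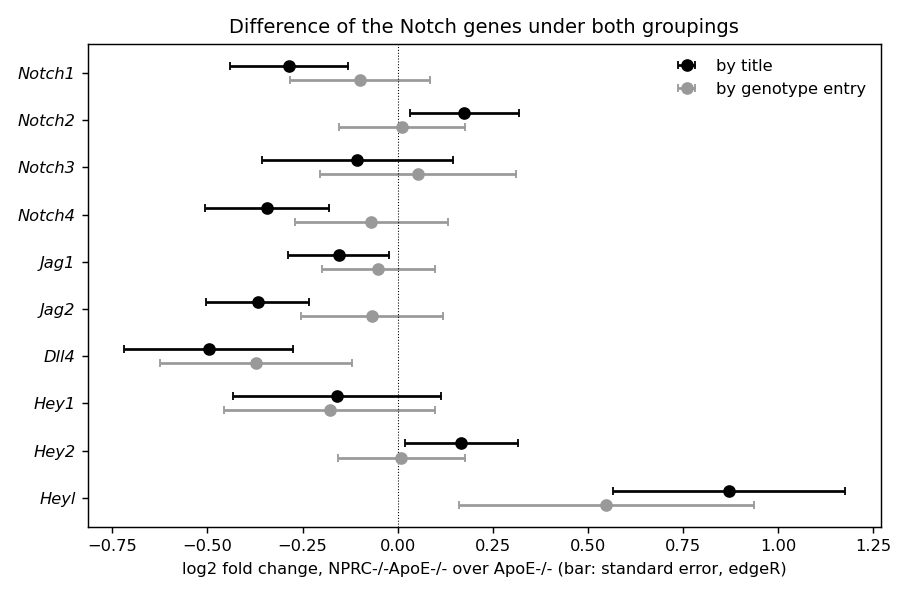
Log2 fold change (horizontal axis, NPRC-/-ApoE-/- over ApoE-/-, edgeR) of the 10 Notch genes with libraries grouped by title (black) and by genotype entry (grey), bars being 1 standard error. Heyl lies farthest from 0 under both groupings, at 0.87 and 0.55, and Dll4 lies farthest below, at -0.50 and -0.37.

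In the 4 libraries whose title and genotype entry agree, the difference of log2 CPM between NPRC-/-ApoE-/- 3 and the mean of ApoE-/- 1 to 3 was 1.56 for Heyl and -1.13 for Dll4. It was -0.67 for Hey1, -0.52 for Jag2, -0.50 for Notch4, -0.42 for Notch1 and -0.29 for Jag1. For Notch2, Hey2 and Notch3 it was 0.24, 0.16 and -0.03. One library stands on one side, so these differences have no replicate check. They had the sign of the fold change by title for all 10 genes, which shares these libraries.

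The libraries also differed in the markers of the cells that express Notch genes, given here as the mean log2 CPM of each list. In bulk tissue, fewer cells of a type and less RNA per cell cannot be told apart. Smooth muscle markers (10 genes) were at 8.51 to 8.93 in the libraries titled ApoE-/- and 8.96 to 9.78 in those titled NPRC-/-ApoE-/-, without overlap, and 9 of 10 were higher at an unadjusted p-value under 0.05 (6.51% of all loci). Macrophage markers (10 genes) were at 6.71 to 8.01 and 5.96 to 7.11, and 6 of 10 were lower at that threshold (7.13% of all loci). Fibroblast markers (8 genes) were at 8.21 to 9.07 and 7.54 to 8.30, and 2 of 8 were lower. Endothelial markers (12 genes) were at 6.40 to 6.49 and 6.36 to 6.42, and arterial endothelial markers (6 genes) at 4.85 to 5.29 and 4.55 to 5.16, so the endothelial lists overlapped between the groups. At the same threshold 1 of the 12 endothelial markers was higher and 0 were lower, and 0 of the 6 arterial ones passed. By genotype entry all these lists overlapped and 0 of their genes had an unadjusted p-value under 0.05, with a difference in mean level of 0.14 for smooth muscle and -0.30 for macrophages, against 0.69 and -1.08 by title. None of these marker genes had an adjusted p-value under 0.05 by edgeR. Of the defining markers, Myh11, the smooth muscle myosin, had a log2 fold change of 0.84 (SE 0.27), Ptprc, the surface phosphatase CD45 of leukocytes, -1.23 (SE 0.38), and Cdh5, the cadherin of endothelial junctions, -0.25 (SE 0.12), while Pecam1 had 0.10 (SE 0.14). Pdgfra, a fibroblast receptor, had -0.57 (SE 0.26), and Cd68, in a locus shared with Eif4a1 and others, -0.45 (SE 0.22). Markers of B and T cells, lymphatic endothelium, brown fat and white fat overlapped between the titled groups. Skeletal muscle markers (6 genes) were at -2.15 to -1.51 in libraries ApoE-/- 2, 3 and 4 and at 1.68 to 2.49 in the other 5. The part of these differences in the values of the Notch genes was not tested.

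Set against the markers of each library, the Notch genes spread differently. Heyl minus the mean smooth muscle level was -2.27, -2.38, -2.11, -2.11 and -2.34 log2 units in libraries titled ApoE-/- 1 to 5 and -2.52, -2.30 and -1.75 in NPRC-/-ApoE-/- 1 to 3 by title. The mean difference between the titled groups was 0.05 on that scale, where library 1 was the lowest of the 8 and library 3 the highest. Over the 8 libraries Heyl and the smooth muscle mean had r = 0.94 (Spearman's rho 0.86), and r = 0.68 without the 2 libraries farthest from the median. Notch3, known as the receptor of smooth muscle, had r = -0.20 with that mean (rho -0.07, and r = 0.12 without the 2 farthest). With the fibroblast and macrophage markers Notch3 had r = 0.68 and 0.66 (0.41 and 0.79 without the 2 farthest). Relative to the mean endothelial level Jag2 was lower in the libraries titled NPRC-/-ApoE-/- by a mean of -0.31 without overlap. It was the only Notch gene of which this held. As Jag2 passed the filter on low values only through the titled ApoE-/- group, this is a description. Dll4 relative to the mean endothelial level was -0.46 with overlapping groups. Relative to the arterial endothelial markers the groups overlapped for all 10 genes. Relative to the smooth muscle level, Dll4 (-1.21) and Jag2 (-1.05) did not overlap between the titled groups. That level was itself higher by 0.69 by title without overlap, so subtracting it moves every gene down. Heyl, at 0.05, was the only one of the 10 genes not below 0 on this scale. The share of all loci without overlap was not taken on any of these scales. By genotype entry the groups overlapped for all 10 genes on each of the 3 scales.

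The Notch4 locus followed the macrophage markers over the 8 libraries with r = 0.99 (Spearman's rho 1.00), and r = 0.98 without the 2 farthest libraries. This locus is shared with Gpsm3 and Pbx2, so its coefficients cannot be assigned to Notch4 alone. Notch1 and the macrophage markers had r = 0.95 (rho 0.90, and r = 0.87 without the 2 farthest). Notch1 and the Notch4 locus had r = 0.90 with each other. Neither was particular to the macrophage list. With the fibroblast markers the Notch4 locus had r = 0.93 (0.94 without the 2 farthest) and Notch1 r = 0.91 (0.92 without the 2 farthest). With the arterial endothelial markers the Notch4 locus had r = 0.84 (0.65 without the 2 farthest) and Notch1 r = 0.86 (0.82 without the 2 farthest). Notch2 ran against the endothelial markers with r = -0.90 (rho -0.76, and r = -0.79 without the 2 farthest). The mean endothelial level ranged narrowly, from 6.36 to 6.49 log2 CPM over the 8 libraries. Among the members, Jag2 ran against Heyl (r = -0.79) and Notch2 (r = -0.80), Dll4 against Heyl (r = -0.73), and Notch1 against the Hey2 locus (r = -0.81). The Hey2 locus also holds Hint3, Ncoa7 and Gm20300, so its coefficient cannot be assigned to Hey2 alone. These coefficients describe 8 libraries of whole aorta whose cell content differed, and all points share the scaling of their library.

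**Figure D4:**
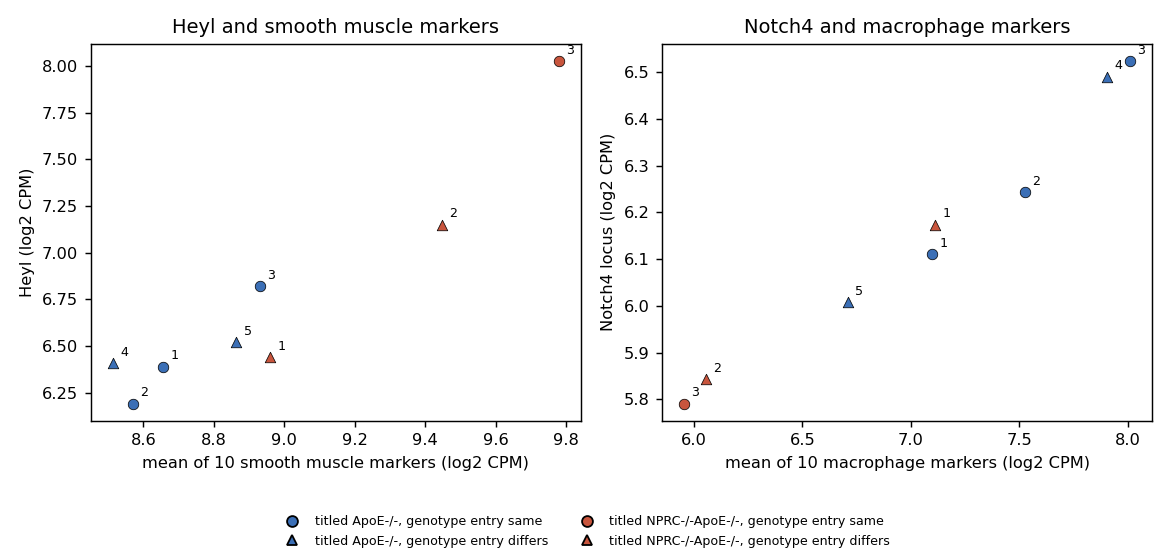
Log2 CPM of Heyl against the mean log2 CPM of 10 smooth muscle markers (left) and of the Notch4 locus against that of 10 macrophage markers (right), with 1 point per library numbered by its title and triangles where the genotype entry differs. Heyl is highest, at 8.03, in the library with the highest smooth muscle level, 9.78, and the 8 libraries have the same order by the Notch4 locus as by the macrophage level.

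The loci most like each Notch gene were taken by Pearson's r of log2 CPM over the 8 libraries among 19920 loci with a gene name. For the Notch4 locus, which is shared with Gpsm3 and Pbx2, they were Ctsb (r = 0.996), Fam110a and Lgmn (both 0.996). Ctsb encodes the lysosomal protease cathepsin B and had 146 to 696 FPKM, and Lgmn encodes the lysosomal protease legumain. For Notch1 they were Stxbp2 (0.994), Myo1g (0.993), a myosin of blood cells, and Fgd3 (0.991). Notch2 was most like Gm11451 (0.986), Synm (0.977), which encodes the muscle intermediate filament synemin, and Sgms1 (0.969). Notch3 was most like a locus that holds Rn7s1, the RNA of the signal recognition particle (0.984, 12946 to 46321 FPKM), followed by Hps6 (0.975) and Fbxw17 (0.973).

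Among the ligands, Dll4 was most like Pde7b (0.994), a phosphodiesterase of cyclic AMP, Gdf7 (0.970) and Gm35808 (0.969). Jag1 was most like Rbm47 (0.985), 4930512J16Rik (0.980) and Gm16353 (0.969), and Jag2 like Stk4 (0.949), Gm7613 (0.948) and Zc3h15 (0.943). Hey1 was most like Itgb1bp1 (0.980), Smarcb1 (0.973) and Wdr55 (0.965). The Hey2 locus, with its other genes, was most like Rbfox2 (0.975), Ppp6r3 (0.967) and Gm23910 (0.962). Heyl was most like Champ1 (0.983), Pxdc1 (0.979) and Rbpms (0.977), an RNA-binding protein known from smooth muscle. With 8 libraries and so many loci, coefficients of this size were found for each of the 10 genes, and other members were left out of the search.

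The rest of the pathway was given by a list of 50 other genes, of which 43 passed the filter on low values. None of the 43 was called at an adjusted p-value under 0.05 by edgeR, 1 was lower and 1 higher at an unadjusted p-value under 0.05 by title (7.13% and 6.51% of all loci), and 0 were by genotype entry. The median log2 fold change was -0.13 by title, with 29 of 43 below 0 (50.9% of all loci), and -0.04 by genotype entry. The 7 genes under the filter were the ligands Dll3, Dner, Dlk1 and Dlk2, the ligand ubiquitin ligase Neurl1a, and the targets Hes5 and Hes7, which had at most 0.71 FPKM. Of these, Dner and Dlk2 were named after their values were seen, and they went opposite ways by title. Dner ranged from 0.13 to 0.69 FPKM in ApoE-/- 1 to 5 and from 0.04 to 0.06 in the 3 others, without overlap. Dlk2 ranged from 0.02 to 0.09 and from 0.11 to 0.13 FPKM, also without overlap. Of tested loci, 4.37% lacked overlap in FPKM in the lower and 2.88% in the higher direction. By genotype entry the groups overlapped for both genes. With no filter on low values the log2 fold change of Dner was -2.42 (adjusted p = 0.30 by edgeR).

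Among the 43 tested genes the smallest p-value was that of Nrarp, a target that feeds back on the Notch complex. It had 2.70, 2.12, 2.29, 2.30 and 2.50 FPKM in libraries titled ApoE-/- 1 to 5 and 1.80, 1.84 and 1.58 in NPRC-/-ApoE-/- 1 to 3 by title. All 3 lay below all 5 in FPKM, as was so for 4.37% of loci in the lower direction. The log2 fold change of Nrarp was -0.43 (SE 0.14, adjusted p = 0.29 by edgeR) by title and 0.01 by genotype entry. DESeq2 gave Nrarp an adjusted p of 0.047 by title. Maml2, a Mastermind coactivator in a locus shared with Ccdc82 and others, had 5.03, 3.85, 3.77, 3.89 and 4.58 FPKM against 4.91, 5.73 and 5.91. Its log2 fold change was 0.41 (SE 0.14, adjusted p = 0.31 by edgeR) by title and 0.08 by genotype entry, and library NPRC-/-ApoE-/- 1 lay within the other group in FPKM.

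The next genes in the lower direction were Bhlhe40, a repressor of the same superfamily as Hes and Hey (-0.71, SE 0.32), Dtx4, an E3 ligase of the Deltex family (-0.78, SE 0.36), and the gamma-secretase subunits Psen2 (-0.50, SE 0.24) and Aph1c (-0.65, SE 0.32). In the higher direction they were Spen, a corepressor (0.19, SE 0.12), Numb, an inhibitor of Notch (0.29, SE 0.18), Mib2, a ligase that acts on ligands (0.18, SE 0.12), and Dtx3 (0.20, SE 0.18). Adam10, the protease of the first cleavage, had -0.38 (SE 0.19), and the fringe glycosyltransferases Lfng and Mfng, which set the preference for Delta-like or Jagged ligands, had -0.73 (SE 0.38) and -0.65 (SE 0.36). Rbpj, the DNA-binding partner, had -0.16 (SE 0.11), the target Hes1 -0.13 (SE 0.20) and the ligand Dll1 -0.11 (SE 0.20). These are log2 fold changes by title, and the lowest adjusted p among them was 0.37.

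**Figure D5:**
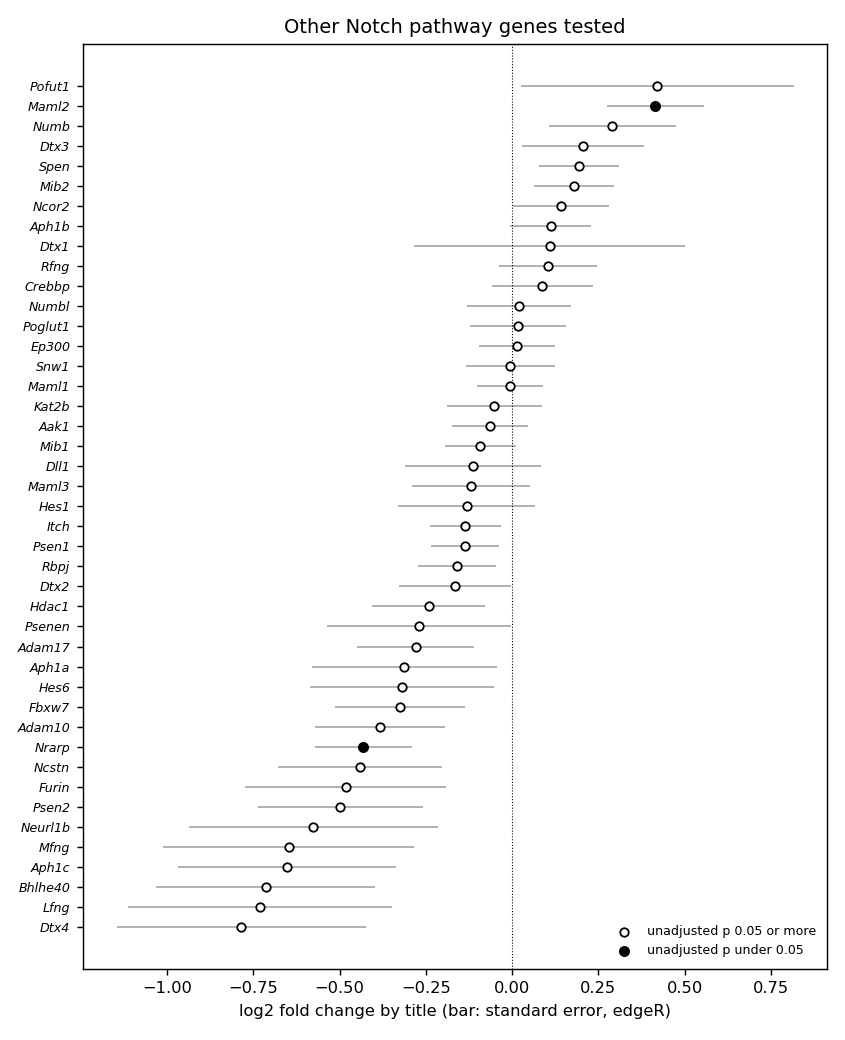
Log2 fold change by title (horizontal axis, edgeR) of the 43 other Notch pathway genes tested, bars being 1 standard error. Filled points are the 2 genes with an unadjusted p-value under 0.05, Nrarp at -0.43 and Maml2 at 0.41, and 29 of the 43 lie below 0.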

How the data were processed

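Poly(A) RNA of whole aortas was sequenced in 8 libraries. Per the study's methods, the authors mapped the reads with HISAT2 and assembled loci with StringTie, and the submitters' processing notes name cutadapt 1.9, FastQC and GRCm38. The authors deposited whole-number read counts per locus without normalization, and FPKM values scaled to transcript length and mapped fragments. How loci were counted and whether strand was used are not given in the sources used here.

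Counts were tested where 3 or more libraries reached 1 FPKM, with edgeR 4.0.16 (R 4.3.3, TMM, quasi-likelihood, Benjamini-Hochberg over all tested loci), by title and again by genotype entry. The edgeR script was tested on simulated data. DESeq2 1.42.0 and limma 3.58.1 were alternatives. Log2 CPM used a prior count of 2. The biological coefficient of variation was 0.327 by title and 0.357 by genotype entry, and the number of libraries limits the precision. The closest 2 libraries differed well beyond sampling noise (mean chi-square of 140 per locus), so all 8 were kept.

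The genes named are the 10 members, the 5 loci of the pathway list with the smallest p in each direction and 8 with a set role (Rbpj, Hes1, Nrarp, Adam10, Dll1, Lfng, Mfng and Numb), defining markers, Npr3 and Apoe, and the 3 loci most like each member. The members and lists were chosen with earlier results of these data known. Gene positions are those of GENCODE M21. Fits without each library, other scalings, filters and tests were tried.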

Additional observations from a re-analysis of the deposited data

Results flagged for a closer look

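The log2 CPM of Hey1 in library ApoE-/- 1 was 2.26, set apart below the other 4 libraries that the genotype entry calls ApoE-/-, by a gap of 0.809 of the range of the group (Dixon's criterion for 5 samples). This was 1 of 30 groups of 5 checked, where chance flags about 1.5, and by title the same library did not stand apart.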

How the results depend on the processing

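With 3 libraries in 1 group and 4 of 8 labels in conflict, no difference of a Notch gene was past an adjusted p of 0.05 under any setting, and low counts did not limit the genes (299 or more per library). The number of the 10 genes with an unadjusted p under 0.05 by title was 2, and 1 with a mean of at least 5 FPKM (fewer genes tested). That 1 was Heyl, with means of 4.47 FPKM in libraries titled ApoE-/- and 7.95 in those titled NPRC-/-ApoE-/-. Heyl thus passed that filter through the group where it was high, and its place in the count is a description. The number was 3 with median-ratio size factors, with DESeq2 and with limma on log2(FPKM + 1) or log2(FPKM + 0.1). It was 1 with edgeR's exact test, 4 with limma and array weights, and 0 by genotype entry. Without 1 library it was 0 to 5, with 5 without ApoE-/- 5 and also without NPRC-/-ApoE-/- 1, 1 without NPRC-/-ApoE-/- 2 and 0 without NPRC-/-ApoE-/- 3. By genotype entry it was 0, and 0 to 1 without 1 library, the 1 being Hey1 (-0.62) without ApoE-/- 4. Of the 43 other pathway genes it was 2, and 5 without a filter, 5 with DESeq2, 4 with the exact test, 7 and 8 with limma on log2(FPKM + 1) and log2(FPKM + 0.1), 15 with array weights, 0 by genotype entry and 0 to 12 without 1 library (9 without ApoE-/- 5, 12 without NPRC-/-ApoE-/- 1, 0 without NPRC-/-ApoE-/- 3). The share of all loci at an unadjusted p under 0.05 was not taken for these other tests, filters and dropped libraries. The counts therefore describe the settings and are not read as a result about the Notch genes. At an adjusted p under 0.05, Nrarp passed with DESeq2 (0.047) and Lfng with limma and array weights (0.0499). Of the Notch genes set against endothelial markers, 1 did not overlap between the titled groups, and 0 against the arterial list. The 1 was Jag2, whose lower direction is tied to the filter on low values. The cause of the changes between settings was not tested.

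The titles share replicate numbers 1 to 3, but same-numbered libraries deviated from their group means with r = -0.31, -0.11 and 0.01. Libraries with different numbers had r = -0.16 to 0.23. No pairing by number was seen, but 3 coefficients from 3 libraries per group cannot exclude one. In these 6 libraries a replicate block gave 1 Notch gene at an unadjusted p under 0.05 (Heyl, 0.74) and the fit with no block gave 0.

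By title the log2 fold change changed sign for Notch3 (-0.25 to 0.058 without 1 library, 0.053 by genotype entry) and Hey1 (-0.29 to 0.074), and for the other 8 genes under no setting, with Heyl at 0.37 to 1.17. By genotype entry it changed sign with limma for Notch2 (-0.024, -0.025 with 0.1 added and -0.045 with array weights), Hey2 (-0.025 and -0.038) and Notch3 (-0.12 with array weights). Without 1 library it was -0.082 to 0.13 for Notch2, -0.21 to 0.23 for Notch3, -0.29 to 0.074 for Notch4, -0.13 to 0.046 for Jag1, -0.21 to 0.077 for Jag2, -0.62 to 0.030 for Hey1, -0.13 to 0.17 for Hey2 and -0.17 to 0.82 for Heyl.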
